A study of Homo sapiens with 12 samples.

Results

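Amino acid transporters are the membrane proteins that carry amino acids into the cell, out of it and between its compartments. The set described here holds 32 human genes that were chosen by name from the families of amino acid transporters, with SLC43A3 as a family member that has another substrate, and each was found by its Ensembl identifier among the 59248 rows of the deposited gene table. Of the 32 genes, 29 had enough counts for the test between groups, as did 16489 genes in the whole table. The genes SLC7A8, SLC1A2 and SLC38A5 did not.

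The study asked how silencing of RUNX2, a transcription factor of the osteoblast lineage, alters gene expression in osteosarcoma cells. SJSA-1, an established human osteosarcoma cell line, was infected with lentivirus carrying either an shRNA against RUNX2 (sh1, 6 libraries) or a scramble shRNA (shNC, 6 libraries). Both lines stably express their shRNA together with EGFP and a puromycin resistance gene and were kept in puromycin until all cells showed EGFP, so that infection, selection and the marker are common to both groups. A single shRNA against RUNX2 was compared with a single control, and the sources do not state whether the 6 libraries of a group derive from independent cultures or infections. The p-values therefore reflect variation among these libraries, and that variation may be purely technical.

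Most carriers of this kind work either as exchangers, which let an amino acid in against another going out, or as symporters, which use the sodium or proton gradient to concentrate their substrate. Several exchangers of the SLC7 family reach the cell surface only when bound to the glycoprotein encoded by SLC3A2. Cells adjust the whole system to supply: the transcription factor ATF4 raises transporter genes when amino acids run short, and the kinase complex mTORC1 reads amino acid levels at the lysosome. In tumour cells, uptake of glutamine, leucine, serine, arginine and cystine feeds growth and the defence against oxidation.

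Gene counts per library summed to between 11239638 and 16346022 in sh1 and to between 15328312 and 19992974 in shNC. Library sh1 replicate 3 stood apart, with the lowest total and with 1.23% of its counts in entries without an Ensembl identifier. RUNX2 itself was at 3.01 ± 0.233 FPKM in sh1 and at 4.82 ± 0.567 FPKM in shNC (SD, n = 6 each). Its levels did not overlap between the groups, and its log2 fold change was -0.69 (SE 0.08, adjusted p 4.6e-06 by edgeR). FPKM is the fragment count per kilobase of gene, scaled to the number of fragments in the library, so that it can be compared between genes. Of 6 markers of the osteoblast lineage, 5 were tested, with RUNX2 lower in sh1, COL1A2 not passing, and 3 higher: SPARC was at 474 FPKM in sh1 and 297 FPKM in shNC, CDH11 at 10.01 and 5.18 FPKM and COL1A1 at 1.66 and 0.590 FPKM. ALPL and COL1A2 were below 0.1 FPKM in both groups. Of the 8 markers of other cell types, CDH1 and INS had no count, and the most abundant, PECAM1, was at 0.358 FPKM in sh1 and 0.263 FPKM in shNC.

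The transporters as a group kept their summed level. Added over the 32 genes, the level was 559 ± 14.9 FPKM in sh1 and 564 ± 47.5 FPKM in shNC (SD, n = 6 each), with the sh1 sums (535 to 574 FPKM) inside the range of the shNC sums (495 to 641 FPKM). Within that sum, 11 of the 29 tested genes differed between the groups at an adjusted p under 0.05 (edgeR's quasi-likelihood test, adjusted over all 16489 genes), which is 37.9% of them, against 26.1% of all genes tested. Higher in sh1 were 4 genes, SLC1A3, SLC43A2, SLC6A6 and SLC25A15, where 12.8% of all genes tested were higher. Lower in sh1 were 7 genes, SLC7A2, SLC1A4, SLC7A11, SLC38A1, SLC36A1, SLC36A4 and SLC1A5, where 13.3% of all genes tested were lower. No difference between the members' shares and these backgrounds was tested, and the members were chosen with earlier results of these data known. The median log2 fold change over the 29 genes was 0.00, as it was over all genes tested, and the median size of the change, regardless of sign, was 0.19 against 0.16. In bulk RNA, fewer cells that express a gene and less of its RNA per cell cannot be told apart, and this holds for each result below.

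The changes were of modest size. In 7 of the 29 tested genes the FPKM values of the groups did not overlap, against 11.9% of all genes tested, and these were the 4 higher genes together with SLC7A2, SLC1A4 and SLC38A1. That share was not compared by a test either, and it too concerns members chosen with earlier results of these data known. The same 7 genes passed the threshold in all 21 alternative analyses, including without sh1 replicate 3. The other 4 lower genes, SLC7A11, SLC1A5, SLC36A1 and SLC36A4, passed it in 9, 13, 14 and 10 of the 21 alternatives. By edgeR, 0 of the 29 genes differed by 2-fold or more at an adjusted p under 0.05, against 2.09% of all genes tested, while 12 of the 29 had an unadjusted p under 0.05. Across all alternatives, DESeq2 and limma included, the estimates lay between -0.60 (SLC7A2) and 0.80 (SLC1A3) on the log2 scale.

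**Figure D1:**
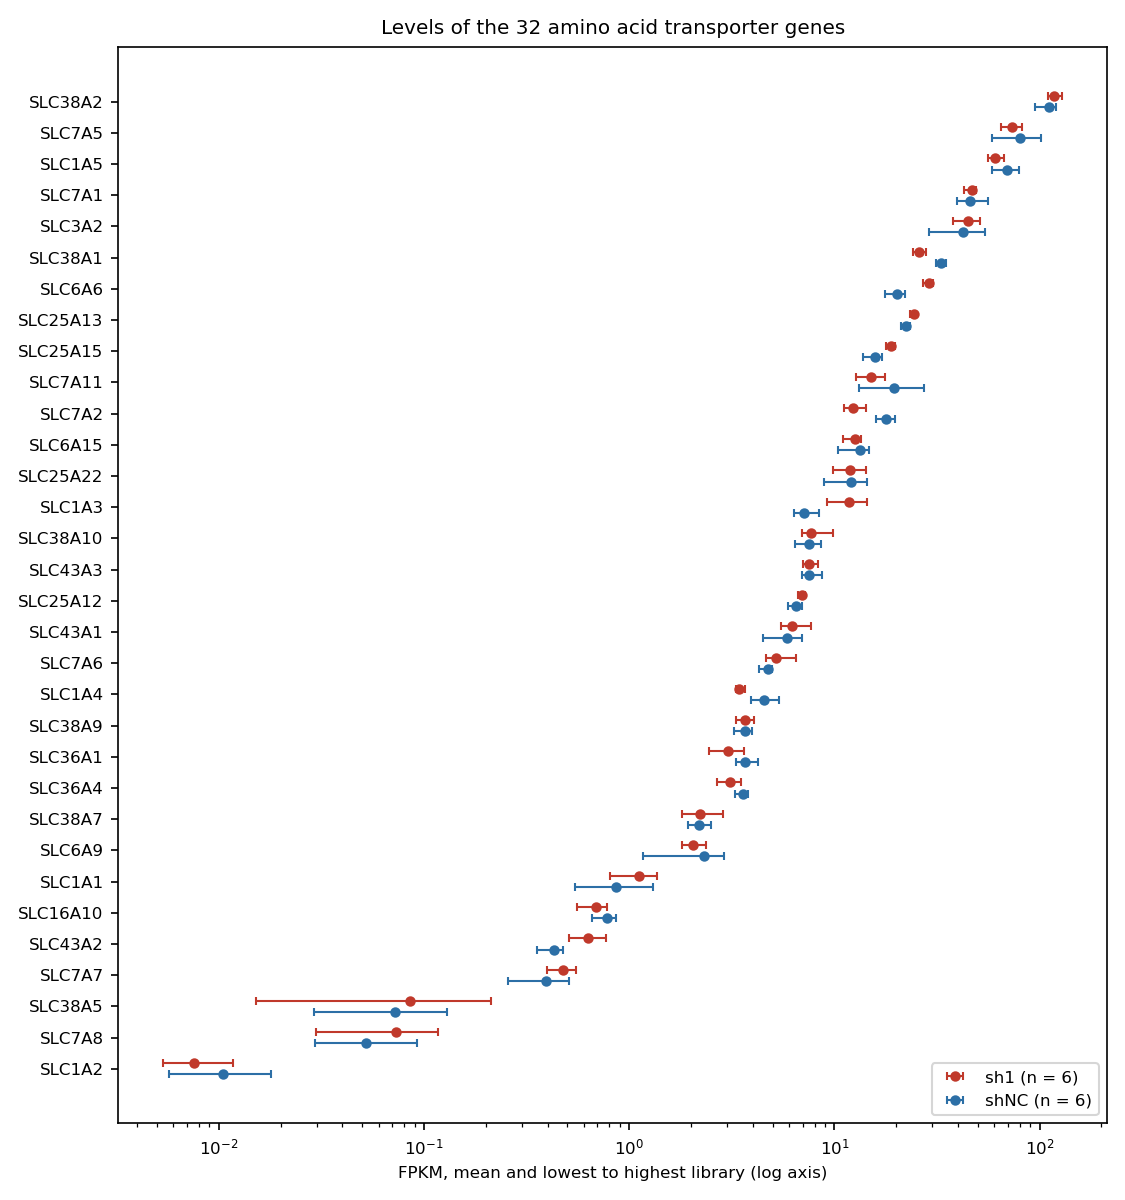
Level of each of the 32 genes in FPKM on a log axis, with sh1 in red above shNC in blue; points are group means and bars run from the lowest to the highest of 6 libraries. SLC38A2 stands at the top near 118 FPKM in sh1 and 111 FPKM in shNC, and SLC38A5, SLC7A8 and SLC1A2 lie below 0.1 FPKM.

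On the FPKM scale, a few carriers made up most of the summed level. SLC38A2, a sodium-coupled carrier of glutamine and alanine, took 21.1% ± 1.62 of the summed FPKM in sh1 and 19.7% ± 1.72 in shNC (SD, n = 6 each). It was followed by SLC7A5, the light chain of the leucine exchanger LAT1, with 13.1% in sh1 and 14.1% in shNC, and by SLC1A5, the glutamine exchanger ASCT2, with 10.9% and 12.3%. The arginine carrier SLC7A1 (46.5 FPKM in sh1 and 45.6 FPKM in shNC) and the heavy chain SLC3A2 (44.6 and 42.5 FPKM) came next, and their ranges over libraries overlapped in both groups. At the other end, SLC7A8, the light chain of a second leucine exchanger, had 2 to 11 counts per sh1 library and 3 to 10 per shNC library. The glial glutamate carrier SLC1A2 had 2 to 3 counts per sh1 library and 2 to 7 per shNC library. SLC38A5, a carrier of glutamine and histidine, had 1 to 13 and 2 to 8 counts. At such counts a difference was not detectable.

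**Figure D2:**
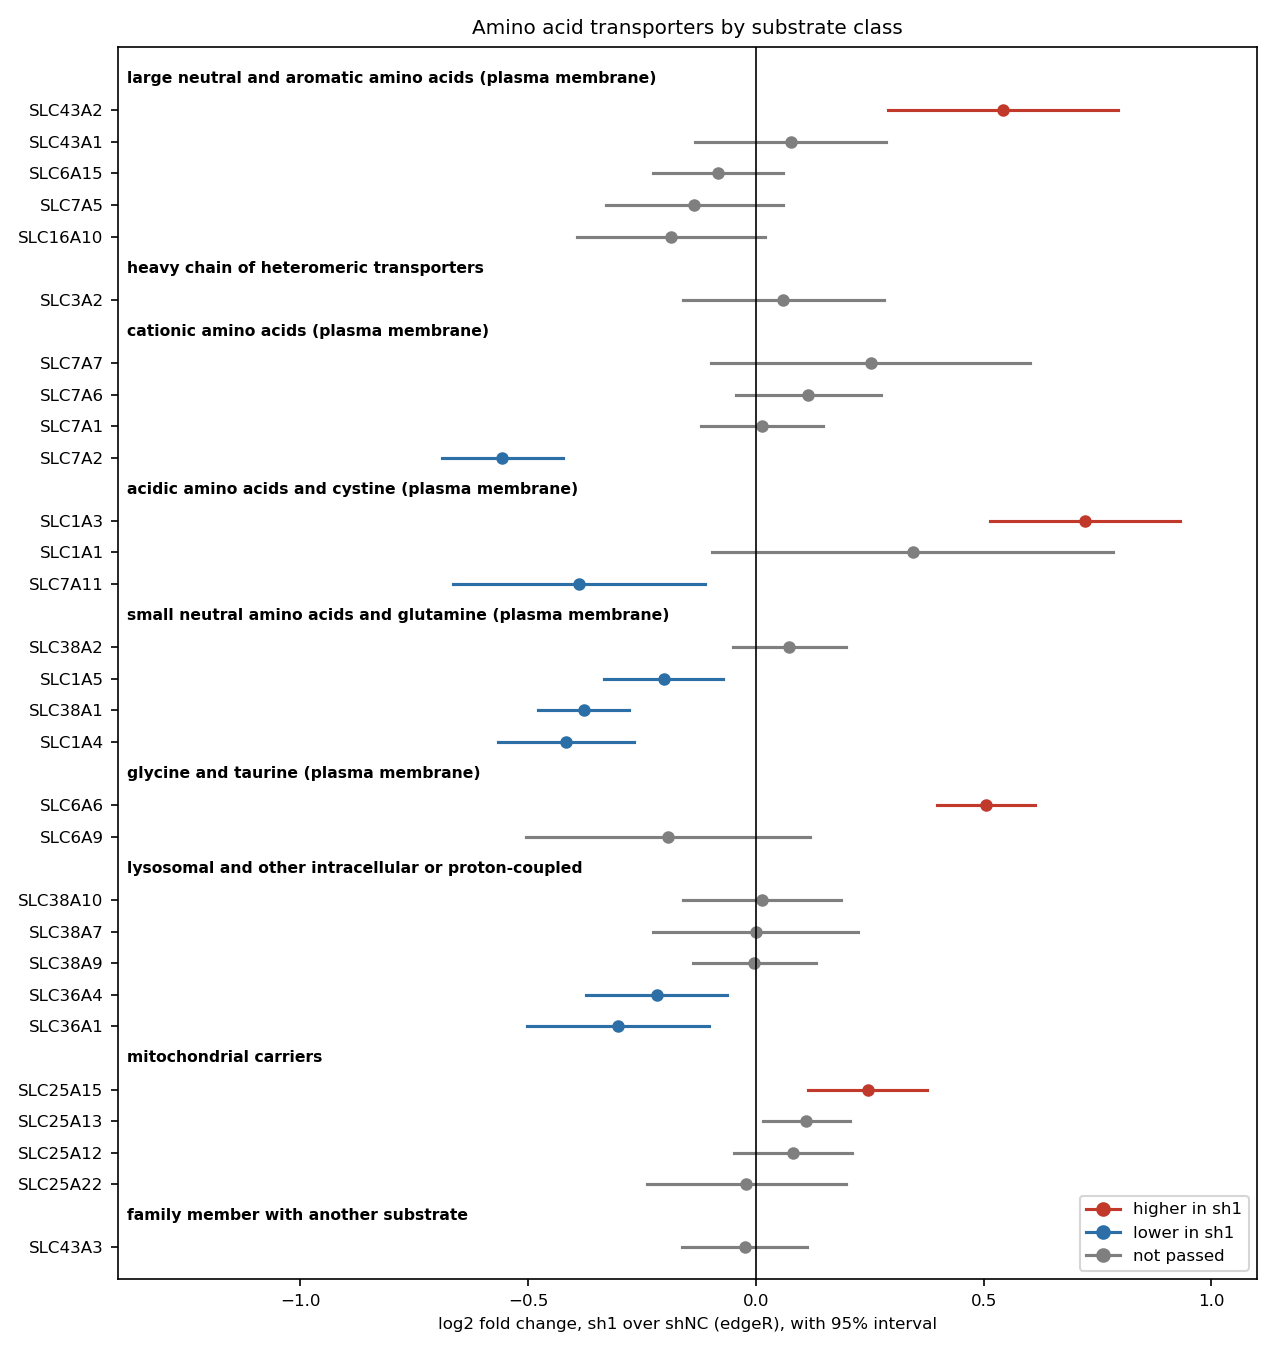
Log2 fold change of sh1 over shNC for the 29 tested genes, grouped by substrate class, with the 95% interval from edgeR; red points passed the test as higher in sh1, blue points as lower, and grey points did not pass. The points run from -0.56 (SLC7A2) to 0.72 (SLC1A3), and 3 of the 4 tested carriers of small neutral amino acids lie to the left of 0.

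Of the carriers of small neutral amino acids and glutamine, 3 of 4 tested were lower in sh1, where 13.3% of all genes tested were lower, and the call of SLC1A5 among them held in 13 of the 21 alternatives. SLC1A4 exchanges alanine, serine, cysteine and threonine. It lies at chr2:64988477-65023865 on the plus strand of GRCh38. Its lowest, median and highest FPKM were 3.31, 3.44 and 3.65 in sh1 libraries, against 3.90, 4.54 and 5.37 in shNC libraries. Every sh1 library was below every shNC library, and the sh1 libraries lay closer together, with a coefficient of variation of 3.70% against 12.1% in shNC. In sh1, SLC1A4 held 74.9% of its shNC level (log2 fold change -0.42, SE 0.07, adjusted p 3.4e-04).

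SLC38A1, a sodium-coupled glutamine carrier, lies at chr12:46183063-46270017 on the minus strand. In sh1 libraries it was at 24.1, 25.7 and 28.0 FPKM (lowest, median, highest), against 31.4, 33.0 and 35.1 FPKM in shNC libraries. The groups were separated by more than 3 FPKM, with a log2 fold change of -0.38 (SE 0.05, adjusted p 1.7e-05). Its close relative SLC38A2, with a neighbouring gene at chr12:46358188-46372773, did not follow it. SLC38A2 was at 109, 118 and 128.5 FPKM in sh1 libraries and at 95.4, 111.5 and 120.5 FPKM in shNC libraries. These ranges overlapped, and the log2 fold change was 0.07 (95% interval -0.05 to 0.20, adjusted p 0.381).

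SLC1A5 fell by a smaller amount. Its FPKM values were 55.8, 59.4 and 66.8 in sh1 libraries (lowest, median, highest), against 58.7, 68.2 and 79.4 in shNC libraries. The groups overlapped because shNC replicate 1, at 58.7 FPKM, lay within the sh1 range, while the other 5 shNC libraries were at 66.9 FPKM or more. The log2 fold change was -0.20 (SE 0.06, adjusted p 0.022). The call was lost on leaving out any of 5 libraries, sh1 replicates 3, 4, 5 and 6 and shNC replicate 4, with log2 fold changes of -0.19 to -0.15 and adjusted p-values of 0.053 to 0.071.

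Ratios of related carriers within a library do not depend on the scaling between libraries. In all, 10 such pairs were compared by an exact two-sided permutation test, for which the smallest possible p is 0.0022, with adjustment over the 10 pairs. The pairs were chosen with earlier results of these data known, and the adjustment does not cover that choice. The ratio of SLC38A2 to SLC38A1 in FPKM was 4.57 ± 0.256 in sh1 and 3.34 ± 0.282 in shNC (SD, n = 6 each; adjusted exact permutation p 0.0216). Every sh1 library had a higher ratio (4.18 to 4.83) than every shNC library (3.04 to 3.71). The ratio of SLC1A4 to SLC1A5 was 0.0570 ± 0.00445 in sh1 and 0.0659 ± 0.00605 in shNC and did not pass (adjusted exact permutation p 0.0519). It passed without sh1 replicate 3 and without shNC replicate 6, with adjusted p-values of 0.032 and 0.022 by the same exact permutation test.

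The 300 bases around the transcription start (250 before and 50 after) were available from RefSeq on GRCh38.p14 for 26 of the 32 genes, in 50 windows. They were searched on both strands for 5 motifs. The letters TGATGNAA, the core to which ATF4 binds together with a C/EBP protein, were found in 6 of the 26 genes, against 4.46% of all genes with a window, and in 6 of the 50 windows, against 3.62% of all 35116 windows. The genes were SLC1A4, SLC1A5 and SLC38A1, which were lower in sh1, SLC1A3, which was higher, and SLC3A2 and SLC7A1, which did not pass the test. This motif was chosen for display after its matches were seen. The stretches are printed in the direction of each gene with the match in capitals, at chr2:64989316-64989428 (plus strand) for SLC1A4, chr12:46266487-46266596 (minus) for SLC38A1, chr19:46784828-46784987 (minus) for SLC1A5, chr5:36596357-36596386 (plus) for SLC1A3, chr11:62881719-62881748 (plus) for SLC3A2 and chr13:29595663-29595692 (minus) for SLC7A1.
SLC1A4: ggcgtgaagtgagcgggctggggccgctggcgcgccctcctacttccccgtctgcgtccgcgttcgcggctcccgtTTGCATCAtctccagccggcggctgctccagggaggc
SLC38A1: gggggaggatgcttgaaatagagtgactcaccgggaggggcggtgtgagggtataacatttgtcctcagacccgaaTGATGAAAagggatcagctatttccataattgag
SLC1A5: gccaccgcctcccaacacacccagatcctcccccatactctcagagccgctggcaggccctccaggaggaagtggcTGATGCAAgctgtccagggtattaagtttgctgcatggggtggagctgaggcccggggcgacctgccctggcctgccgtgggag
SLC1A3: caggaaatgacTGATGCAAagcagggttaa
SLC3A2: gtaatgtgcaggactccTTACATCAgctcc
SLC7A1: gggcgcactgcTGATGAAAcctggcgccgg
Counted from the start site of its own window, the match begins at -7 in SLC1A4, at -4 in SLC38A1 and at -97 in SLC1A5. In SLC1A4 it is on the other strand and reads TTGCATCA in the direction of the gene. The windows with the match in SLC1A4, SLC38A1, SLC1A5 and SLC3A2 belong to starts inside the gene, downstream of its outermost annotated start. Those of SLC1A3 and SLC7A1 span the outermost start. In SLC1A4, for example, the window is at chr2:64989149-64989448, and the gene begins at 64988477. The RUNX core TGTGGT was found in 5 of the 26 genes (SLC1A3, SLC25A22, SLC38A1, SLC43A2 and SLC7A7), against 15.6% of all genes, and in 7 of the 50 windows, against 13.1% of all windows. Its form TGCGGT was found in 5 genes (SLC1A3, SLC1A4, SLC38A9, SLC3A2 and SLC7A8), against 8.67% of all genes, and in 6 windows, against 7.29% of all windows. The antioxidant response core TGACNNNGC was found in 9 genes and 9 windows, against 16.1% of all genes and 13.3% of all windows. The E-box CACGTG was found in 10 genes and 10 windows, against 8.77% of all genes and 7.26% of all windows. In SLC25A13, the antioxidant response and E-box matches share 2 bases, and no other matches of different motifs in a member overlap. A match describes the letters present and is no measurement of binding.

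Of the 3 tested carriers of acidic amino acids and cystine, SLC1A3 was higher in sh1, SLC7A11 was lower with a call that held in 9 of the 21 alternatives, and SLC1A1 did not pass. SLC1A3, which takes up glutamate and aspartate with sodium, showed the largest increase of the set. It lies at chr5:36596588-36688334 on the plus strand. The sh1 libraries held 9.19, 12.2 and 14.4 FPKM (lowest, median, highest), against 6.31, 7.02 and 8.38 FPKM in the shNC libraries. All sh1 libraries were above all shNC libraries, the highest being sh1 replicate 6 and the lowest of its group sh1 replicate 3. The level in sh1 was 1.65-fold higher (log2 fold change 0.72, SE 0.10, adjusted p 4.0e-05). Exon bases of SLC1A3 are shared with 2 genes on the opposite strand, SLC1A3-AS1 (147 bases) and ENSG00000274441 (150 bases). Both were also higher in sh1, with log2 fold changes of 0.70 and 1.07 (adjusted p 0.0206 and 0.00158). Strand is not recorded by the library kit, and reads in the shared bases cannot be assigned to either strand. The opposite-strand genes had at most 52 counts in a library, and SLC1A3 had at least 628. How reads in the shared bases bear on the difference of SLC1A3 was not tested.

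SLC1A1, the other sodium-coupled glutamate carrier with enough counts, was at 1.12 ± 0.237 FPKM in sh1 and 0.864 ± 0.308 FPKM in shNC (SD, n = 6 each). The values were spread widely in both groups and overlapped, with a 95% interval of the log2 fold change from -0.10 to 0.78 (adjusted p 0.244). A difference as large as that of SLC1A3 lies inside this interval.

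SLC7A11, the light chain of the exchanger that imports cystine against glutamate and so supplies glutathione synthesis, was lower in sh1. Its FPKM values were 12.7, 14.4 and 17.7 in sh1 libraries (lowest, median, highest), against 13.1, 19.3 and 27.3 in shNC libraries. The shNC libraries were far apart, from shNC replicate 1 at 13.1 FPKM to shNC replicate 2 at 27.3 FPKM, and 2 of them lay within the sh1 range. The log2 fold change was -0.39 (SE 0.13, adjusted p 0.037). This call was lost on leaving out any of 8 libraries (sh1 replicates 1, 2, 4 and 5 and shNC replicates 2, 3, 4 and 5), with adjusted p-values of 0.061 to 0.12, and by DESeq2 (adjusted p 0.088). Without shNC replicate 2, the log2 fold change was -0.26. The ratio of SLC7A11 to its heavy chain SLC3A2 was 0.342 ± 0.0693 in sh1 and 0.461 ± 0.0847 in shNC (SD, n = 6 each; adjusted exact permutation p 0.0519). It passed the exact permutation test without sh1 replicate 6 or without shNC replicate 6, with adjusted p-values of 0.014 to 0.027.

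The cationic amino acid carriers supply arginine and lysine, and 1 of the 4 differed, close to the 26.1% of all genes tested that differed. SLC7A2, an arginine and lysine carrier inducible in inflammation, lies at chr8:17497088-17570573 on the plus strand. In sh1 libraries it was at 11.1, 11.97 and 14.3 FPKM (lowest, median, highest), against 15.96, 17.7 and 19.8 FPKM in shNC libraries. Even the highest sh1 library, replicate 2, was below the lowest shNC library. This was the largest decrease among the tested members, with a log2 fold change of -0.56 (SE 0.06, adjusted p 6.3e-06) and 68.0% of the shNC level in sh1.

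Its more abundant relative SLC7A1, the general arginine importer, was at 42.6, 46.7 and 49.2 FPKM in sh1 libraries and at 39.4, 44.4 and 55.9 FPKM in shNC libraries. The sh1 range fell within the shNC range, and the 95% interval of the log2 fold change, -0.12 to 0.15, leaves out a decrease of the size seen for SLC7A2. SLC7A6 and SLC7A7, light chains of exchangers that release cationic in return for neutral amino acids, had log2 fold changes of 0.11 (95% interval -0.04 to 0.27) and 0.25 (-0.10 to 0.60), and neither passed the test. SLC7A7 was near the limit of measurement, with 30 to 46 counts in sh1 libraries and 21 to 40 in shNC libraries. SLC7A6 shares 3372 exon bases with SLC7A6OS on the opposite strand, which had 97 to 148 counts per library. The ratio of SLC7A7 to SLC7A6 did not pass (0.0913 ± 0.00933 in sh1 and 0.0831 ± 0.0184 in shNC, SD, n = 6 each, adjusted exact permutation p 0.43).

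Among the carriers of large neutral and aromatic amino acids, 1 of 5 tested genes differed (20%, against 26.1% of all genes tested). SLC43A2, a facilitative carrier of leucine and related amino acids, lies at chr17:1569268-1628886 on the minus strand. Its FPKM values were 0.508, 0.639 and 0.766 in sh1 libraries (lowest, median, highest), against 0.354, 0.442 and 0.474 in shNC libraries. The groups did not overlap, and the log2 fold change was 0.54 (SE 0.12, adjusted p 0.0028). The gene is weakly expressed, with 64 to 124 counts in sh1 libraries and 71 to 96 counts in shNC libraries. The related carrier SLC43A1 was at 5.47, 5.85 and 7.66 FPKM in sh1 libraries and at 4.48, 5.82 and 6.91 FPKM in shNC libraries, which overlapped (log2 fold change 0.08, 95% interval -0.13 to 0.29). The ratio of SLC43A2 to SLC43A1 was 0.103 ± 0.0229 in sh1 and 0.0749 ± 0.0128 in shNC and did not pass (SD, n = 6 each, adjusted exact permutation p 0.0519). It passed without sh1 replicate 3 or without shNC replicate 1, with adjusted exact permutation p-values of 0.029 to 0.032.

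SLC7A5, which exchanges leucine and other large neutral amino acids as part of LAT1, was at 64.5, 72.7 and 82.2 FPKM in sh1 libraries (lowest, median, highest). In shNC libraries it was at 58.4, 80.4 and 101.5 FPKM. The shNC libraries enclosed the whole sh1 range, and the log2 fold change was -0.14 (95% interval -0.33 to 0.06, adjusted p 0.299). Its heavy chain SLC3A2 was at 37.6, 44.7 and 51.4 FPKM in sh1 libraries and at 28.9, 43.1 and 54.4 FPKM in shNC libraries, with a log2 fold change of 0.06 (95% interval -0.16 to 0.28). Although neither gene passed on its own, the ratio of SLC7A5 to SLC3A2 was lower in sh1, at 1.65 ± 0.118 against 1.89 ± 0.102 in shNC (SD, n = 6 each; adjusted exact permutation p 0.0216). The ratios ran from 1.46 to 1.79 in sh1 and from 1.74 to 2.02 in shNC, and the difference passed on leaving out each of the 12 libraries. The ratio of SLC7A5 to SLC7A8 rests on the few counts of SLC7A8 and did not pass (adjusted exact permutation p 0.288).

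**Figure D3:**
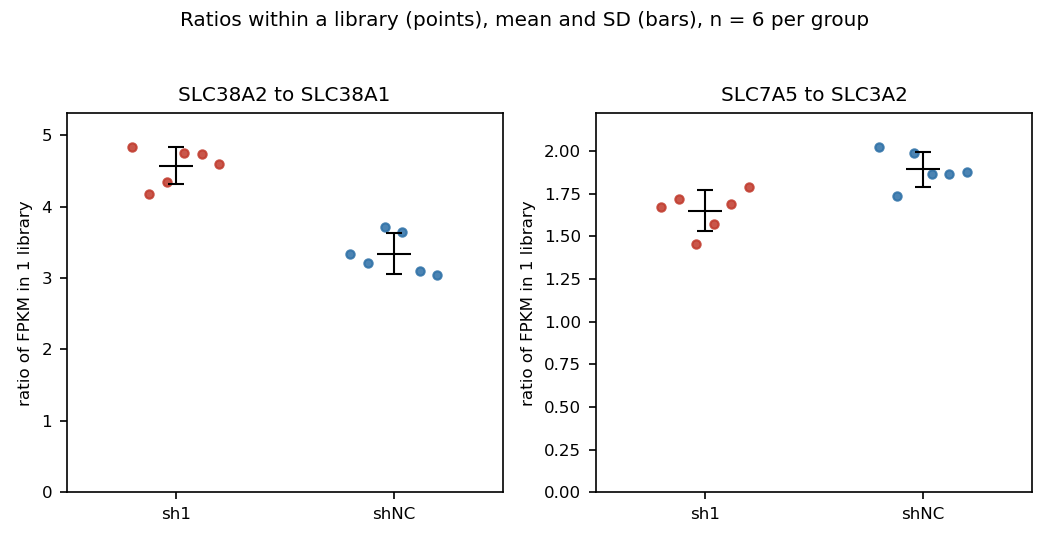
Ratio of FPKM within each library for SLC38A2 to SLC38A1 (left) and SLC7A5 to SLC3A2 (right), with sh1 left of shNC in each panel; points are libraries and bars give the mean and SD of 6. The SLC38A2 to SLC38A1 ratios are separate (4.18 to 4.83 in sh1 and 3.04 to 3.71 in shNC), while those of SLC7A5 to SLC3A2 meet between 1.74 and 1.79.

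The remaining carriers of this class did not pass. SLC6A15, a sodium-dependent carrier of branched-chain amino acids and proline, was at 12.6 ± 0.905 FPKM in sh1 and 13.2 ± 1.49 FPKM in shNC (SD, n = 6 each; log2 fold change -0.08, 95% interval -0.23 to 0.06). SLC16A10, which lets aromatic amino acids pass along their gradient, was at 0.688 ± 0.0729 FPKM in sh1 and 0.777 ± 0.0789 FPKM in shNC (SD, n = 6 each; log2 fold change -0.19, 95% interval -0.39 to 0.02). SLC43A3, which belongs to the family of SLC43A1 and SLC43A2 but carries purine bases, was at 7.48 ± 0.489 FPKM in sh1 and 7.52 ± 0.677 FPKM in shNC, with a 95% interval of -0.16 to 0.11.

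SLC6A6 and SLC6A9 carry taurine and glycine with sodium and chloride. SLC6A6, the taurine carrier, had the smallest p-value of the set. It lies at chr3:14402576-14489349 on the plus strand. It was at 27.1, 29.0 and 30.2 FPKM in sh1 libraries (lowest, median, highest), against 17.7, 20.2 and 22 FPKM in shNC libraries. The gap between the groups, more than 5 FPKM, exceeded the range within either. Its level was 1.42-fold higher in sh1 (log2 fold change 0.51, SE 0.05, adjusted p 1.7e-06), and it made up 5.18% of the summed FPKM in sh1 and 3.58% in shNC. It shares 243 exon bases with GRIP2 on the opposite strand, which had 8 to 49 counts per library and was lower in sh1 (log2 fold change -1.17, adjusted p 0.001).

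SLC6A9, a glycine carrier, was at 1.81, 2.01 and 2.38 FPKM in sh1 libraries and at 1.17, 2.48 and 2.90 FPKM in shNC libraries. Library shNC replicate 1 was alone at the low end, with the other shNC libraries at 2.26 FPKM or more. With all libraries, the log2 fold change was -0.19 (95% interval -0.50 to 0.12, adjusted p 0.362), and without shNC replicate 1 it was -0.33 (adjusted p 0.013). It shares 413 exon bases with CCDC24 on the opposite strand (39 to 84 counts per library).

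**Figure D4:**
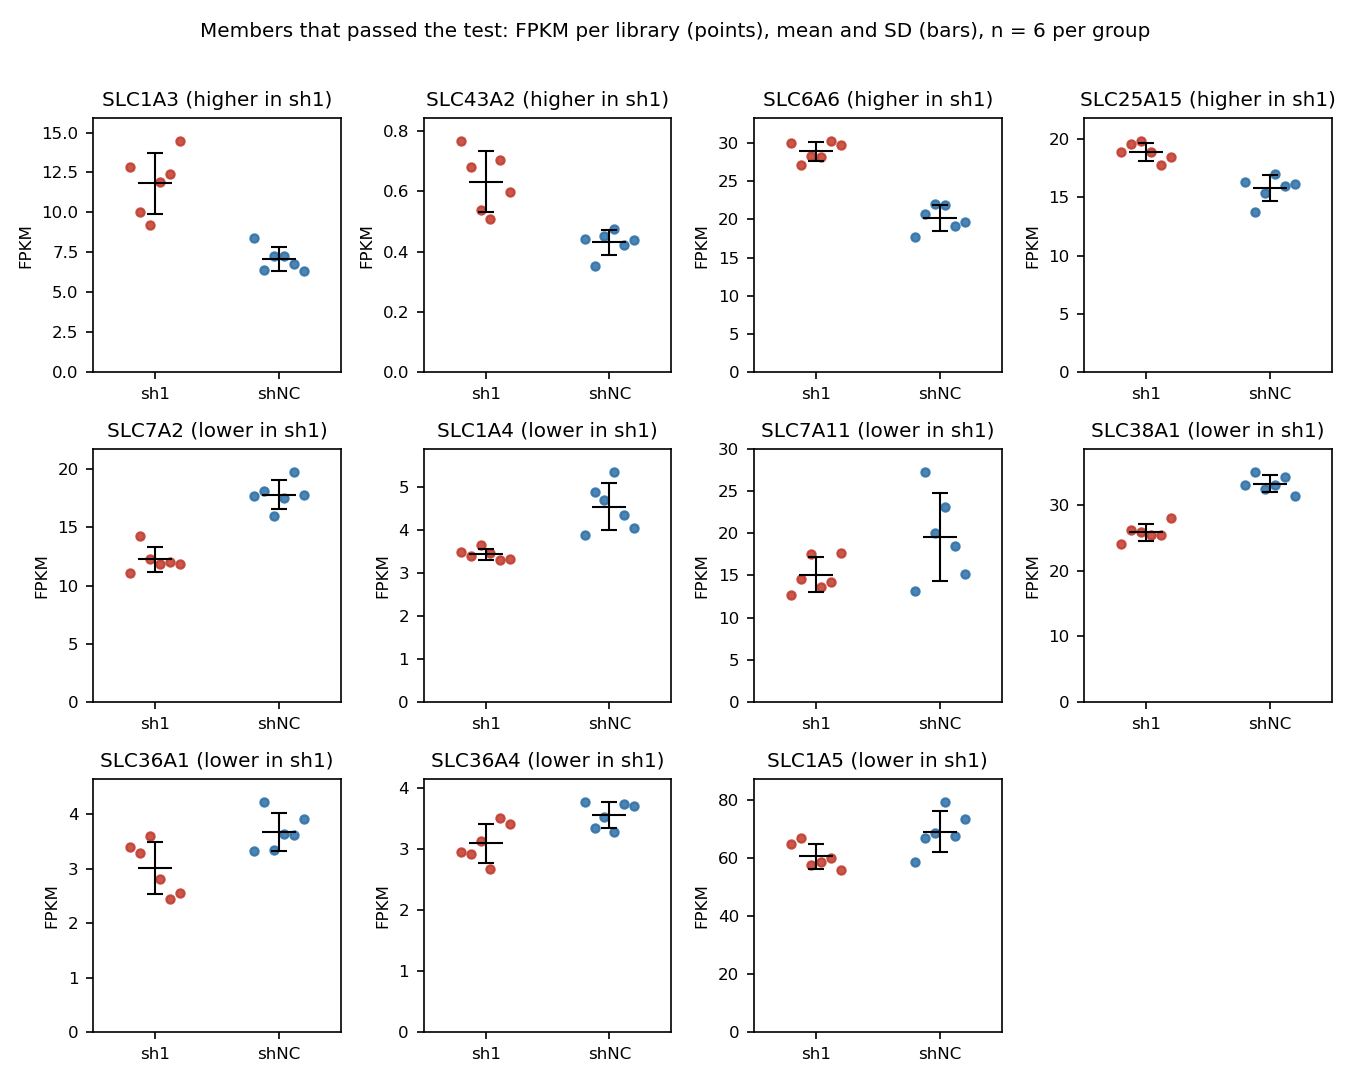
FPKM of the 11 genes that passed the test, with a panel for each, axes from 0 and sh1 left of shNC; points are libraries and bars give the mean and SD of 6. The panels of SLC1A3, SLC43A2, SLC6A6, SLC25A15, SLC7A2, SLC1A4 and SLC38A1 show no overlap, and those of SLC7A11, SLC36A1, SLC36A4 and SLC1A5 do.

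Among the lysosomal and other intracellular or proton-coupled carriers, the 2 SLC36 genes were lower in sh1, where 13.3% of all genes tested were lower, and the 3 SLC38 genes did not differ detectably. SLC36A1, which moves glycine, alanine and proline out of lysosomes with protons, was at 2.45, 3.05 and 3.61 FPKM in sh1 libraries (lowest, median, highest), against 3.32, 3.63 and 4.23 FPKM in shNC libraries. Replicates 2, 4, 5 and 6 of sh1 were below all shNC libraries, and replicates 1 and 3 of sh1, at 3.41 and 3.61 FPKM, lay among them. The log2 fold change was -0.30 (SE 0.09, adjusted p 0.025). The call was lost on leaving out any of 5 libraries, sh1 replicates 4, 5 and 6 and shNC replicates 2 and 5, with log2 fold changes of -0.29 to -0.24 and adjusted p-values of 0.051 to 0.078.

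SLC36A4, a carrier of proline and tryptophan, was at 2.67, 3.05 and 3.52 FPKM in sh1 libraries and at 3.28, 3.62 and 3.78 FPKM in shNC libraries. The groups overlapped through sh1 replicates 5 and 6 (3.52 and 3.42 FPKM). The log2 fold change was -0.22 (SE 0.07, adjusted p 0.036). The call was lost on leaving out any of 8 libraries, sh1 replicates 1, 2, 3 and 4 and shNC replicates 1, 3, 5 and 6, with log2 fold changes of -0.21 to -0.17 and adjusted p-values of 0.056 to 0.1. The ratio of SLC36A4 to SLC36A1 did not pass (1.06 ± 0.259 in sh1 and 0.977 ± 0.123 in shNC, SD, n = 6 each, adjusted exact permutation p 0.576).

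SLC38A9, the lysosomal arginine sensor and carrier that signals to mTORC1, was at 3.68 ± 0.273 FPKM in sh1 and 3.64 ± 0.279 FPKM in shNC (SD, n = 6 each), with a 95% interval of the log2 fold change of -0.14 to 0.13. SLC38A7, which exports glutamine from lysosomes, was at 2.22 ± 0.438 and 2.19 ± 0.1997 FPKM, with an interval of -0.23 to 0.22. SLC38A10, a carrier of glutamine and other amino acids found inside cells, was at 7.65 ± 1.11 and 7.51 ± 0.758 FPKM, with an interval of -0.16 to 0.19. The direction of change of these 3 genes turned with the analysis.

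Mitochondrial carriers move amino acids across the inner mitochondrial membrane, and 1 of the 4 was higher in sh1, where 12.8% of all genes tested were higher. SLC25A15, which carries ornithine for the urea cycle and polyamine synthesis, lies at chr13:40789412-40812460 on the plus strand. It was at 17.8, 18.9 and 19.8 FPKM in sh1 libraries (lowest, median, highest), against 13.8, 16.1 and 17.1 FPKM in shNC libraries. The groups did not overlap, although the lowest sh1 library, replicate 5, was less than 1 FPKM above the highest shNC library, replicate 4. SLC25A15 differed by a log2 fold change of 0.25 (SE 0.06, adjusted p 0.0072). A gene named as a pseudogene of it, SLC25A15P4, was listed at 6.72 FPKM in sh1 and 4.84 FPKM in shNC (log2 fold change 0.44, adjusted p 0.121 by edgeR). Reads may be split between the 2 genes where their sequences are alike, and their sequences were not compared here. SLC25A15 also shares 96 exon bases with the microRNA gene MIR621 on the same strand. MIR621 had 116 to 177 counts per library, against at least 409 for SLC25A15 (log2 fold change of MIR621 0.12, adjusted p 0.326 by edgeR). How reads in these shared bases bear on the difference of SLC25A15 was not tested.

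SLC25A13 and SLC25A12, the liver-type and brain-type carriers that export aspartate in return for glutamate, did not pass. SLC25A13 was at 23.4, 24.4 and 24.96 FPKM in sh1 libraries and at 21.2, 22.3 and 23.4 FPKM in shNC libraries. The groups touched only at sh1 replicate 6 and shNC replicate 1, both at 23.4 FPKM. The log2 fold change was 0.11 (SE 0.05, adjusted p 0.082), and without shNC replicate 1 it was 0.13 (adjusted p 0.036). SLC25A12 was at 6.96 ± 0.207 FPKM in sh1 and 6.50 ± 0.476 FPKM in shNC (SD, n = 6 each; log2 fold change 0.08, 95% interval -0.05 to 0.21). The ratio of SLC25A12 to SLC25A13 was 0.286 ± 0.0114 in sh1 and 0.291 ± 0.0175 in shNC (SD, n = 6 each, adjusted exact permutation p 0.576). SLC25A22, a glutamate carrier, was at 11.9 ± 1.70 FPKM in sh1 and 11.98 ± 2.07 FPKM in shNC, with a 95% interval of -0.24 to 0.20.

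The spread within shNC had an order of its own. Library shNC replicate 1 was the lowest shNC library for 14 of the 29 tested transporters, where it was the lowest for 30% of all genes tested, and shNC replicate 4 was the highest for 15 of the 29, where it was the highest for 25.2% of all genes. Both held for 9 transporters, SLC7A5, SLC43A1, SLC6A15, SLC3A2, SLC7A1, SLC1A4, SLC1A5, SLC6A9 and SLC25A22, which is 31.0% of the members, against 12.7% of all genes tested. Replicates 1 and 4 of shNC were singled out after their ranks among these members were seen, and the shares were not compared by a test. SLC3A2 was at 54.4 FPKM in shNC replicate 4 and 28.9 FPKM in shNC replicate 1, and SLC7A5 was at 101.5 and 58.4 FPKM. Of 12 genes of the ATF4 arm of nutrient sensing, 8 had the same lowest and highest shNC library. DDIT4, an inhibitor of mTORC1 signalling, was at 55.0 FPKM in shNC replicate 4 and 13.0 FPKM in shNC replicate 1, and DDIT3, a stress-induced transcription factor, was at 30.4 and 10.5 FPKM. Both were chosen as examples after their values were seen. In sh1, SLC3A2 ran from 37.6 to 51.4 FPKM and SLC7A5 from 64.5 to 82.2 FPKM, inside the shNC extremes. What set these libraries apart was not tested.

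**Figure D5:**
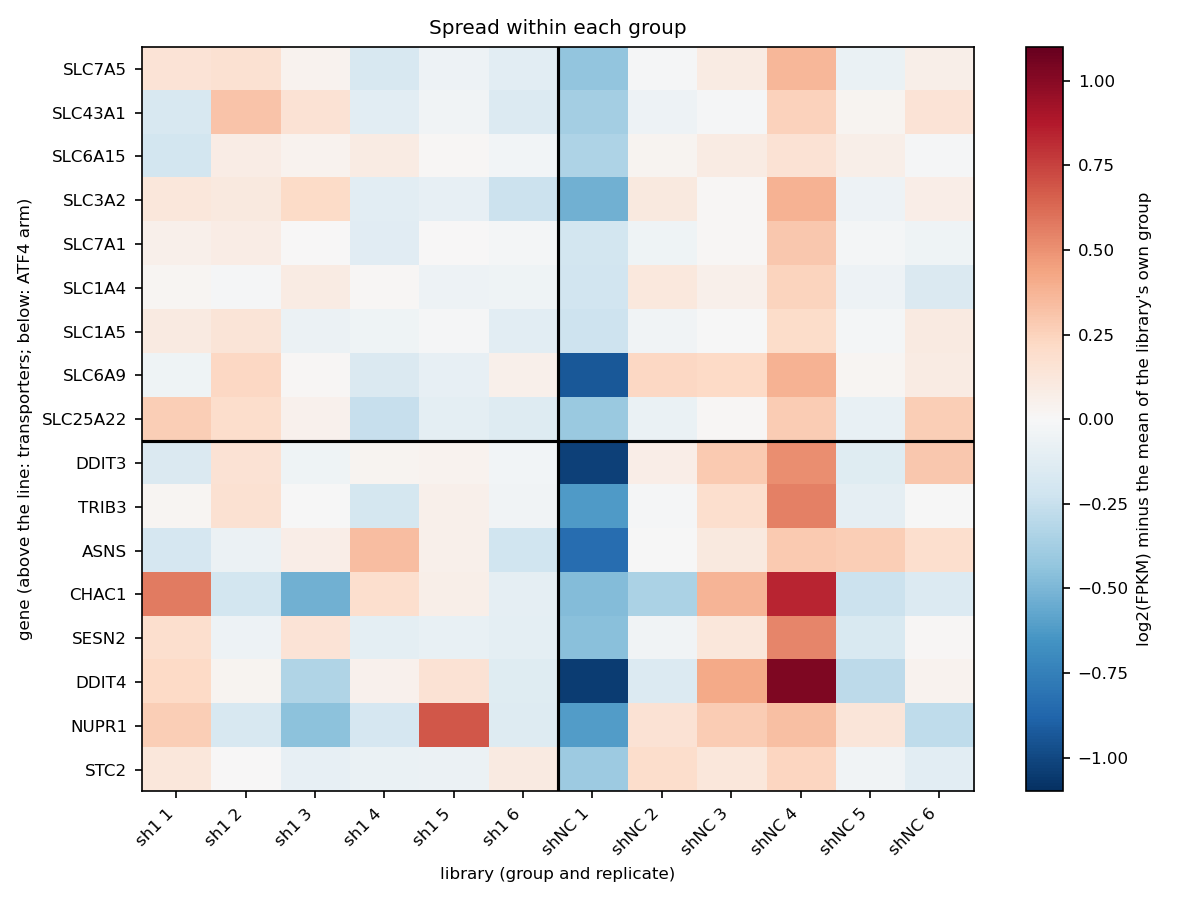
Level of each gene in each library as log2 FPKM minus the mean of the library's own group, with the 6 sh1 libraries left of the 6 shNC libraries; the 9 upper rows are transporters and the 8 lower rows genes of the ATF4 arm. The column of shNC replicate 1 is blue (low) and that of shNC replicate 4 red (high) in all 17 rows, which were chosen for that order.

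Other genes of amino acid transport and sensing were read from the same test. Of 37 further transporter genes, 12 had enough counts, of which 1 was higher and 3 were lower in sh1 (33.3% called, against 26.1% of all genes tested). SLC25A29, a mitochondrial carrier of basic amino acids, was at 2.99 ± 0.318 FPKM in sh1 and 2.14 ± 0.348 FPKM in shNC (SD, n = 6 each; log2 fold change 0.47, adjusted p 0.00165), without overlap. The lower genes were SFXN2, a sideroflexin of the inner mitochondrial membrane (log2 fold change -0.27, adjusted p 0.0195), CTNS, the lysosomal cystine exporter (-0.32, 0.0367), and SLC25A44, a mitochondrial carrier of branched-chain amino acids (-0.18, 0.0333). The call of CTNS was lost on leaving out any of 8 libraries, replicates 2, 4, 5 and 6 of sh1 and of shNC (adjusted p 0.058 to 0.099). That of SLC25A44 was lost without any of sh1 replicates 1, 4, 5 and 6 and shNC replicates 1, 2, 5 and 6 (adjusted p 0.05 to 0.1). That of SFXN2 was lost without sh1 replicate 2 or shNC replicate 5 (adjusted p 0.052 and 0.062).

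Of the 12 genes of the ATF4 arm, which raises amino acid transport and synthesis under shortage, 3 were lower in sh1 and 9 did not pass, so that 25% were called, close to the 26.1% of all genes tested. ATF4 itself was at 127, 152 and 181 FPKM in sh1 libraries (lowest, median, highest), against 149, 195 and 212 FPKM in shNC libraries. Only shNC replicate 1 lay within the sh1 range, and the log2 fold change was -0.35 (SE 0.08, adjusted p 0.0043). SESN2, a leucine sensor, was at 20.9 ± 1.99 FPKM in sh1 and 27.5 ± 6.51 FPKM in shNC (SD, n = 6 each; log2 fold change -0.41, adjusted p 0.0119), and its call was lost by limma on log2(FPKM + 1) (adjusted p 0.051). CEBPB, a transcription factor that pairs with ATF4, had a log2 fold change of -0.46 (adjusted p 0.022), and its call was lost without sh1 replicates 1, 3 or 6 or shNC replicates 2 or 5 (adjusted p 0.051 to 0.07).

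Of the 26 genes of the lysosomal mTORC1 arm, 25 were tested, 3 were higher and 4 lower in sh1, so that 28% were called, close to the 26.1% of all genes tested. SESN3, of the sestrin family that restrains mTORC1, was at 2.31 ± 0.460 FPKM in sh1 and 1.08 ± 0.128 FPKM in shNC (SD, n = 6 each; log2 fold change 1.09, adjusted p 4.1e-06), without overlap. Its relative SESN1 was at 13.7 ± 0.685 and 9.77 ± 0.452 FPKM (log2 fold change 0.47, adjusted p 7.5e-06). TFEB, which drives lysosomal genes, had a log2 fold change of 0.59 (adjusted p 0.0221), and its call was lost without sh1 replicates 1 or 5 or shNC replicate 2 (adjusted p 0.051 to 0.055). The lower genes were 3 subunits of the Ragulator scaffold of mTORC1, LAMTOR3 (-0.33, adjusted p 5.5e-04), LAMTOR5 (-0.26, 0.0076) and LAMTOR1 (-0.21, 0.02), and the mTORC1 activator RHEB (-0.18, 0.0388), which is named here after its value was seen. The other Ragulator subunits listed, LAMTOR2 and LAMTOR4, were not called. The call of RHEB held in 8 of the 21 alternatives, and was lost without any single sh1 library or shNC replicates 1, 2 or 5 (adjusted p 0.055 to 0.11). The call of LAMTOR1 was lost without sh1 replicates 4 or 6 or shNC replicate 5 (adjusted p 0.056 to 0.06).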

How the data were processed

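Polyadenylated RNA of 12 SJSA-1 libraries (6 sh1 and 6 shNC) was sequenced as read pairs with a kit that does not mark strand. The authors trimmed the reads, aligned them to GRCh38 with HISAT2 and deposited gene counts from featureCounts. Versions of both programs are not stated in the sources. The authors also deposited FPKM values, which are the counts divided by gene length and library total, and a table of counts divided by DESeq2 size factors, which was not used here. The metabolome was not analysed here. Of the 59248 rows, 58676 carry an Ensembl identifier, of which 58207 were matched to GENCODE 44, and the other 572 rows, 0.468% to 1.23% of a library's counts, stayed in the totals.

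Members were selected by symbol, and groups were taken from the sample descriptions. The members, the other gene lists and the pairs were chosen with earlier results of these data known. For the test between groups, the deposited counts entered edgeR 4.0.16 under R 4.3.3 (TMM factors, filterByExpr, glmQLFit and glmQLFTest, no covariate), with Benjamini-Hochberg adjustment over all 16489 genes tested and calls at an adjusted p under 0.05. Standard errors and 95% intervals were derived from the same fit. The common biological coefficient of variation was 0.106. Log2 ratios of member pairs were compared by an exact two-sided permutation test over the 924 divisions of the libraries. Genes named are all 32 members, RUNX2, up to 6 members of each other list that passed, by smallest p, and the most abundant marker of another cell type. RHEB, LAMTOR2, LAMTOR4, DDIT3, DDIT4, GRIP2 and other genes that overlap a member or are named as its pseudogene, and the markers ALPL, COL1A2, CDH1 and INS are named beyond this rule. The test was tried on 1 set of simulated data with known fold changes. It called 44 of 67 genes given a 1.5-fold change and 60 of 67 given a 2-fold change. Of the unchanged genes, 11 were called. Smaller changes were not simulated.

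The alternatives were RLE, upper-quartile and no scaling factors, no filter or at least 10 counts in every library, DESeq2 1.42.0, limma 3.58.1 on log2 FPKM after adding either 1 or 0.1, a block for replicate number, and leaving out each library. Of 29 tested members, 11 share exon bases with another annotated gene, 9 of them on the opposite strand and 7 with a gene that was itself tested. Promoter sequences are those of RefSeq on GRCh38.p14.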

Additional observations from a re-analysis of the deposited data

Results flagged for a closer look

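In 6 of 110 checks of a gene, ratio or total within a group of 6 libraries, the highest or lowest library lay far from the rest by Dixon's criterion for the gap to the nearest library. Chance gives about 5.5 such cases in 110. Library sh1 replicate 2 had 14.3 FPKM of SLC7A2, against 11.1 to 12.3 FPKM in the other sh1 libraries. For SLC7A6, sh1 replicate 3 was at 6.46 FPKM, against 4.64 to 5.29 FPKM. For SLC38A10, sh1 replicate 1 was at 9.88 FPKM, against 6.97 to 7.47 FPKM, and without it the log2 fold change was -0.06 (adjusted p 0.5 by edgeR). In shNC replicate 1, SLC6A9 was at 1.17 FPKM and ATF4 at 149 FPKM, against 2.26 to 2.90 and 193 to 212 FPKM in the other shNC libraries. The total count of sh1 replicate 3 was 11239638, against 14689309 to 16346022 in the other sh1 libraries.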

How the results depend on the processing

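The number of members lower in sh1 was 7, but 3 by limma with either pseudocount and 3 to 7 on leaving out a library. The number higher was 4 to 5 in all alternatives. Among further transporter genes, the number lower was 3, but 1 with library totals only, by limma with either pseudocount and with the replicate block, and 0 to 3 without a library. The number higher was 1 to 2 without a library. Lower nutrient sensing genes numbered 7, and 4 to 8 without a library, and 2 pairs passed, 2 to 4 without a library. Replicate numbers did not pair the libraries: same-numbered libraries of the groups correlated at -0.16 to 0.03 in their deviations, and none of the 6 best with its own number. With the replicate block, 1680 genes were higher and 1701 lower, against 2108 and 2194, and 4 members were higher and 6 lower, the call of SLC1A5 being lost (adjusted p 0.064). SLC43A2, a weakly expressed gene, had a log2 fold change of 0.19 by limma on log2(FPKM + 1), against 0.54.

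Among members and pairs, signs turned only where the test was not passed. SLC38A7 (0.00) was at 0.0054 with RLE factors, 0.0089 with upper-quartile factors, 0.0157 with library totals, 5e-04 with at least 10 counts in every library, 9e-04 by DESeq2, and 0.0052 and 0.0026 by limma with 1 and 0.1 added. SLC38A9 (0.00) was at 0.0023, 0.0073 and 0.0121 with these scalings, and 0.0101 and 0.0125 by limma. On leaving out a library, the log2 fold changes ranged from -0.023 to 0.148 for SLC3A2, -0.0175 to 0.0849 for SLC7A1, -0.0669 to 0.064 for SLC38A7, -0.0269 to 0.0377 for SLC38A9, -0.0627 to 0.0601 for SLC38A10, -0.0864 to 0.0412 for SLC25A22, -0.0445 to 0.0258 for SLC43A3 and -0.0047 to 0.141 for the ratio of SLC36A4 to SLC36A1. The cause of these changes was not tested. Members with few counts, such as SLC7A7 and SLC1A1, have wide 95% intervals, from -0.10 to 0.60 and from -0.10 to 0.78. Both include the increases of SLC43A2, SLC6A6 and SLC25A15, and that of SLC1A1 also includes the increase of SLC1A3. Neither reaches the decreases of the 7 members called lower.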
